A study of Mus musculus with 4 samples.

Results

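The CXC chemokines described here are the 9 genes Cxcl1, Cxcl2, Cxcl5, Cxcl9, Cxcl10, Cxcl12, Cxcl13, Cxcl14 and Cxcl16. They were taken as every probe set whose platform annotation names exactly 1 gene, that gene being one of the 9, which gave 13 of the 22626 probe sets: 2 probe sets each for Cxcl12, Cxcl13, Cxcl14 and Cxcl16 and 1 for each of the others. The arrays are Affymetrix mouse arrays hybridised with RNA from the mouse line 3T3-F442A, preadipocytes that can be turned into fat cells in the dish. Of the 4 arrays, 2 are labelled shTRPV4, from cells carrying a short hairpin RNA against the calcium-permeable cation channel gene Trpv4, and 2 are labelled shGFP, from cells carrying a control hairpin against GFP. All cells had been infected with a retrovirus as preadipocytes, selected in puromycin at 2 ug/ml for 2 days, and differentiated from confluence for 8 days with 850 nM insulin, with rosiglitazone, a PPAR gamma agonist, for the first 2 days. The labels do not say whether the arrays of a group came from separate infections or cultures, so each p-value covers only how far arrays of 1 label lay apart, which can be a technical matter.

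CXC chemokines are small proteins, named for the spacing of conserved cysteines, that steer leukocytes through G protein-coupled receptors. Members with a Glu-Leu-Arg motif before the cysteines, here Cxcl1, Cxcl2 and Cxcl5, attract neutrophils through CXCR2. Cxcl9 and Cxcl10 are induced by interferons and attract activated T cells through CXCR3. The remaining members act elsewhere: Cxcl12 retains and guides progenitor cells through CXCR4, Cxcl13 draws B cells through CXCR5, and Cxcl16 is a membrane-bound ligand of CXCR6. Stromal cells and preadipocytes of fat are known sources of several of them.

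The deposited intensities are the authors' linear values per probe set, and a difference is the mean of log2(intensity + 16) in the arrays labelled shTRPV4 minus that in the arrays labelled shGFP after quantile normalization, fitted with limma over all 22626 probe sets. A probe set counted as changed where its p, adjusted by Benjamini-Hochberg over all of them, was under 0.05. Trpv4 itself read 80.1 and 79.5 in the arrays labelled shTRPV4, against 43.7 and 93.8 in the arrays labelled shGFP (difference 0.32, 95% interval −0.55 to 1.19, adjusted p = 0.55), so the knockdown could not be read from its probe set. Normalized arrays of 1 label differed by a median absolute log2 value of 0.10 (shTRPV4) and 0.12 (shGFP), against 0.20 to 0.22 between labels. No detection calls were used. The lower quartile of all intensities was 20.7 to 21.7 on the 4 arrays, and 4 of the 13 chemokine probe sets, those of Cxcl2, Cxcl9 and Cxcl14, read under it on all 4.

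Of the 13 probe sets, 6 were lower in the arrays labelled shTRPV4, 0 were higher and 7 did not pass, against 5.36% lower and 4.54% higher over all probe sets tested. The split over all probe sets was 1213 lower and 1027 higher, against 1161 and 600 with the values as deposited and 1141 and 1662 with median centring, under both of which the chemokine count was again 6 lower and 0 higher. The 6 belong to 5 genes, Cxcl1, Cxcl5, Cxcl10, Cxcl12 and Cxcl16. On 8 of the 13 the arrays of the groups did not overlap and shTRPV4 was lower, and 0 were higher without overlap, where these held for 30.3% and 26.2% of all probe sets. The median difference over the 13 was −0.37, beside 0.02 over all probe sets. With any 1 array left out, and with the replicate number as a block, 0 of the 13 passed (as did 0 of all probe sets), with 7 or 8 of the 13 at an unadjusted limma p under 0.05. Each of those fits has 1 residual degree of freedom, and all 6 differences stayed negative in each.

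**Figure D1:**
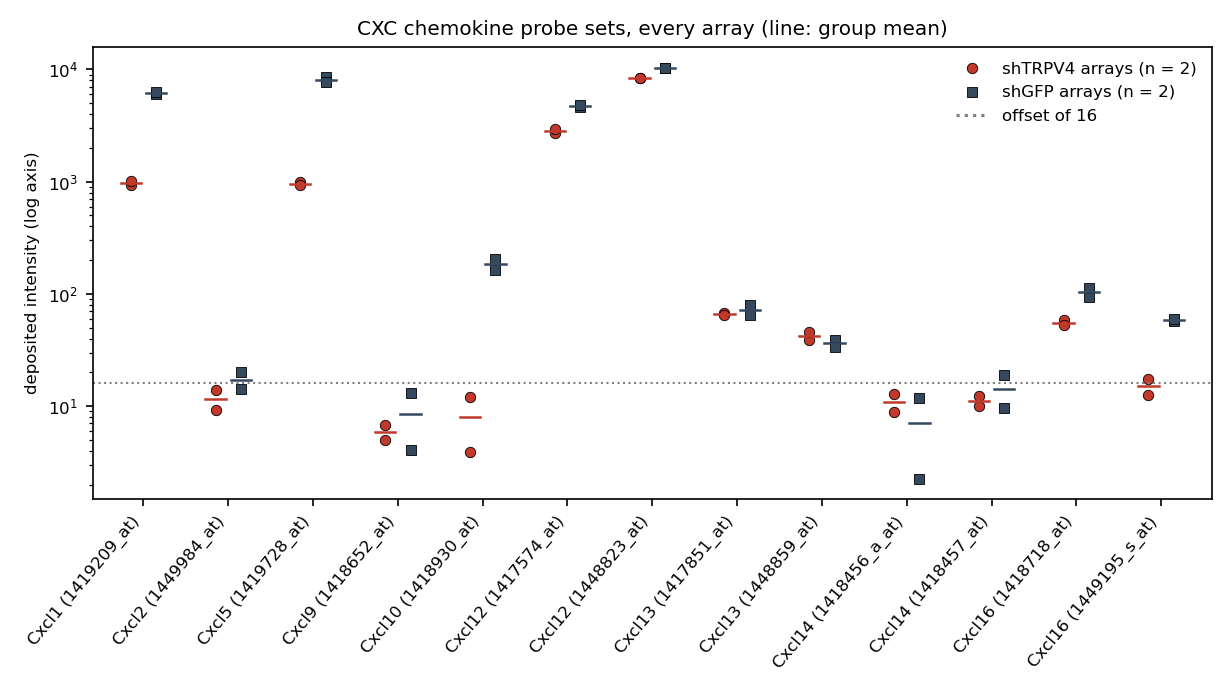
Deposited intensity (log axis) of the 13 CXC chemokine probe sets on each array, shTRPV4 (circles) to the left of shGFP (squares), with the mean of each group as a line and the offset of 16 dotted. Cxcl1 and Cxcl5 sit between 924 and 1008 on the arrays labelled shTRPV4, against 5992 to 8511 on the arrays labelled shGFP, while Cxcl2, Cxcl9 and Cxcl14 lie around or under the offset in both groups.

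Of the neutrophil attractants, Cxcl5 and Cxcl1 had large falls and Cxcl2 was dim on every array. Cxcl5 read 994 and 924 in the arrays labelled shTRPV4, against 8511 and 7700.0 in the arrays labelled shGFP. The arrays of the groups were far apart, and the mean in shTRPV4 was 11.8% of that in shGFP. The difference was −3.08 (SE 0.10, 95% interval −3.37 to −2.78, adjusted p = 0.015), an 8.45-fold fall that was the 5th lowest of all probe sets. Cxcl1 read 926 and 1008 in the arrays labelled shTRPV4, against 5992 and 6234 in the arrays labelled shGFP. Here too the groups stood well apart, with 15.8% of the shGFP mean left. Its difference was −2.65 (SE 0.07, −2.83 to −2.46, adjusted p = 0.015), the 12th lowest. Neither value depended on the offset or the scaling: Cxcl5 lay between −3.19 and −2.96 and Cxcl1 between −2.67 and −2.54 over all 12 alternatives.

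Cxcl2, a close relative of Cxcl1 that acts on the same receptor, read 9.27 and 13.9 in the arrays labelled shTRPV4, against 14.1 and 20.2 in the arrays labelled shGFP. The groups did not overlap, but by a margin under 1 intensity unit, and 3 of the 4 readings were under the offset of 16. The difference of −0.26 did not pass (95% interval −0.66 to 0.15, adjusted p = 0.33). Whether Cxcl2 changed could not be seen at this signal.

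Cxcl1 and Cxcl2 lie next to each other and share a marked element in their promoters, so both sequences are shown, beside that of Cxcl10, which also fell. RefSeq promoters of build GRCm38.p6 matched 7 of the 9 members by symbol, all but Cxcl5 and Cxcl16. The 250 bases before the annotated start are given 5′ to 3′ on the strand of the gene, at chr5:90890995-90891244 (plus strand), chr5:90903649-90903898 (plus strand) and chr5:92348890-92349139 (minus strand). Capitals mark matches to the NF-kappaB consensus (its degenerate form of 10 letters) and to the interferon-stimulated response element core GAAANNGAA, both searched on both strands.
Cxcl1: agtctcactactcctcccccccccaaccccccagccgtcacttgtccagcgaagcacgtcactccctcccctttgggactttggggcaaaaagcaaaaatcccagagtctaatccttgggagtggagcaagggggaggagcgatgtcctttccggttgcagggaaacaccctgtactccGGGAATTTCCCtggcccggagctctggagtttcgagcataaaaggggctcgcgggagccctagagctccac
Cxcl2: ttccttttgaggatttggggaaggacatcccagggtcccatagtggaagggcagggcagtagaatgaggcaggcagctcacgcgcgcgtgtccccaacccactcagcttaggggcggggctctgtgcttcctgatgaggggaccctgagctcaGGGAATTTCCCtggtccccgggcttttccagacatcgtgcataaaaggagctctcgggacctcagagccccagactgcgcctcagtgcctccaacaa
Cxcl10: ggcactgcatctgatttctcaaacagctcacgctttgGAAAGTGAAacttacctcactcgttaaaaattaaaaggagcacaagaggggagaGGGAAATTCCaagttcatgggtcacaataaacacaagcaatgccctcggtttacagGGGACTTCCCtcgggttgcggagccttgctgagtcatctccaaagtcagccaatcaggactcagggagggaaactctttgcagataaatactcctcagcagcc
The same run of 11 bases, GGGAATTTCCC, stood 71 to 61 bases before the start of Cxcl1 and 97 to 87 bases before that of Cxcl2. It is 2 overlapping matches to the NF-kappaB consensus, 1 on each strand. Cxcl10 held the consensus at 2 separate places, GGGAAATTCC from 159 to 150 and GGGACTTCCC from 103 to 94 bases before its start, and a response element core, GAAAGTGAA, from 213 to 205. The consensus occurred in 3.90% of 32851 promoter windows of this length and the response element core in 7.13%. Of the 7 members, the consensus was found in these 3 windows, and the core in Cxcl9, Cxcl10 and Cxcl14. The AP-1 motif TGANTCA matched in Cxcl10 alone (6.75% of windows), the STAT motif TTCNNNGAA in Cxcl14 alone (7.02%) and TATAAA in Cxcl9 and Cxcl13 (12.4%), and Cxcl12 had no match to any of the 5. The matches describe these letters only: Cxcl1 and Cxcl2 hold the same run, Cxcl1 had one of the largest falls and Cxcl2 read near the dimmest signals.

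Of the interferon-inducible members, Cxcl10 fell to readings under the offset while Cxcl9 was dim on every array. Cxcl10 read 3.92 and 12.0 in the arrays labelled shTRPV4, against 203 and 163 in the arrays labelled shGFP. Both shTRPV4 readings were under the lower quartile of their arrays, and both shGFP readings were above the median of all probe sets, which was 129 to 144 on the 4 arrays. The difference was −3.03 (SE 0.23, −3.69 to −2.37, adjusted p = 0.018). With the shTRPV4 readings under the offset, its size is set by the offset: it was −4.47 with an offset of 1, where the call was lost (adjusted p = 0.063), and −1.75 with 64. Cxcl9 read 4.94 and 6.78 in the arrays labelled shTRPV4, against 4.06 and 13.0 in the arrays labelled shGFP. The groups overlapped and all readings were under the offset (difference −0.14, −0.72 to 0.44, adjusted p = 0.71).

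Cxcl12 was bright on both of its probe sets in both groups, and its differences were smaller. By probe set 1417574_at its intensities were 2696 and 2917 in the arrays labelled shTRPV4, against 4609 and 4825 in the arrays labelled shGFP. The groups were clearly separate and the shTRPV4 mean was 59.5% of the shGFP mean (difference −0.74, SE 0.07, −0.93 to −0.56, adjusted p = 0.020). By probe set 1448823_at its intensities were 8334 and 8361 in the arrays labelled shTRPV4, against 10396 and 10319 in the arrays labelled shGFP. These groups did not overlap either, but the fall to 80.6% did not pass (−0.37, SE 0.06, −0.56 to −0.19, adjusted p = 0.0506). It passed with an offset of 64, with either filter on dim probe sets and with an intensity trend (adjusted p from 0.0054 to 0.024), and was −0.21 with median centring (adjusted p = 0.15). The probe sets thus differ in size: their log2 ratio, 1448823_at over 1417574_at, was 1.58 and 1.49 in the arrays labelled shTRPV4, against 1.21 and 1.13 in the arrays labelled shGFP.

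Both probe sets of Cxcl16, the ligand that also exists as a membrane-anchored scavenger receptor, were lower. By probe set 1418718_at its intensities were 58.0 and 52.9 in the arrays labelled shTRPV4, against 93.4 and 113 in the arrays labelled shGFP (difference −0.66, SE 0.10, −0.93 to −0.39, adjusted p = 0.039). By probe set 1449195_s_at its intensities were 12.7 and 17.5 in the arrays labelled shTRPV4, against 57.7 and 60.3 in the arrays labelled shGFP (−1.23, SE 0.11, −1.54 to −0.93, adjusted p = 0.020). On neither did the groups overlap. All of these readings were below the median of their arrays, the second set, of a kind that can read related transcripts, was around the offset in shTRPV4, and both calls were lost with an offset of 1 (−0.79, adjusted p = 0.070, and −1.86, adjusted p = 0.054). With an offset of 64 the second difference shrank to −0.62 (adjusted p = 0.0076).

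The remaining members, Cxcl13 and Cxcl14, did not pass on any probe set. Cxcl13 had intensities by 1417851_at of 67.7 and 64.5 in the arrays labelled shTRPV4, against 79.6 and 64.7 in the arrays labelled shGFP (−0.02, −0.37 to 0.32, adjusted p = 0.92). By its other probe set, 1448859_at, it read 38.5 and 46.0 in the arrays labelled shTRPV4, against 38.8 and 33.7 in the arrays labelled shGFP (0.20, −0.11 to 0.51, adjusted p = 0.31). In both the groups overlapped, and the intervals leave room for a change in either direction. Cxcl14, a chemokine of epithelia and fat with no settled receptor, read 12.8 and 8.94 in the arrays labelled shTRPV4, against 2.26 and 11.9 in the arrays labelled shGFP, on probe set 1418456_a_at (0.26, −0.42 to 0.94, adjusted p = 0.54, and 0.88, adjusted p = 0.55, with an offset of 1). On 1418457_at it read 9.92 and 12.4 in the arrays labelled shTRPV4, against 9.60 and 18.8 in the arrays labelled shGFP (−0.13, −0.62 to 0.36, adjusted p = 0.67). These intensities are in the lowest quartile of their arrays, where a difference could not be told from the scatter.

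**Figure D2:**
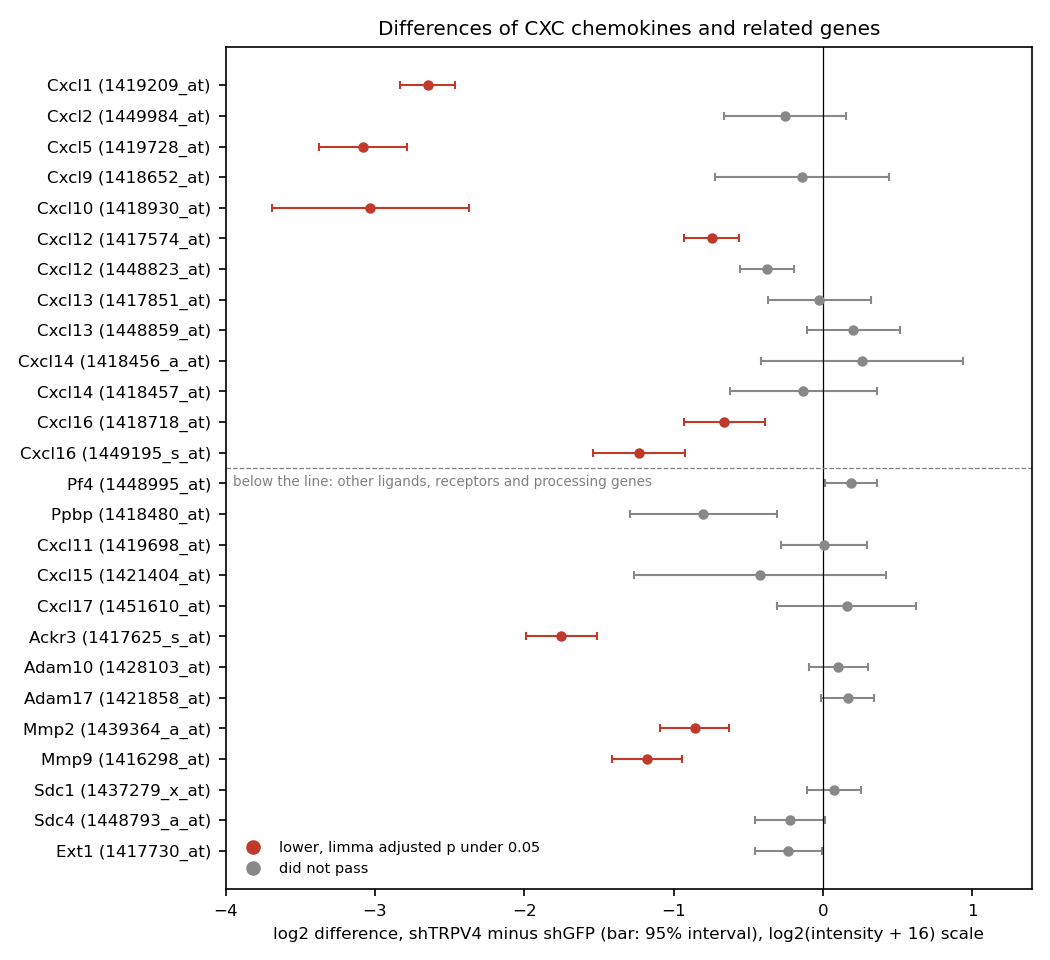
Log2 difference (shTRPV4 minus shGFP, log2(intensity + 16) scale) with 95% interval for the 13 chemokine probe sets, above the dashed line, and for other CXC ligands and the receptor and processing genes that were bright or passed, below it. Red points passed. Cxcl5, Cxcl10 and Cxcl1 lie between −3.08 and −2.65, Ackr3 at −1.75, and the sheddase genes Adam10 and Adam17 near 0.

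Among the other CXC ligands, 5 of 6 were measured and 0 passed (median difference 0.01), beside 5.36% lower and 4.54% higher over all probe sets. Cxcl3 is not analysed here. The platelet chemokine gene Ppbp read 24.5 and 37.0 in the arrays labelled shTRPV4, against 70.9 and 65.0 in the arrays labelled shGFP, with no overlap (−0.80, −1.29 to −0.31, adjusted p = 0.073). It passed with median centring, with an offset of 64 and with probe sets under the 25th percentile left out (adjusted p from 0.032 to 0.047). Cxcl11, the other CXCR3 ligand, differed by 0.01 on its brighter probe set and by −0.79 on the dimmer (adjusted p = 0.98 and 0.13). The RefSeq table of GRCm38.p6 lists it as a transcribed pseudogene.

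Of 8 receptor genes for these ligands, 7 were measured, 1 fell and 0 rose (median −0.15). Over all probe sets 5.36% were lower and 4.54% higher. Ackr3, a scavenging receptor that binds and internalises Cxcl12, read 714 and 726 in the arrays labelled shTRPV4, against 2336 and 2692 in the arrays labelled shGFP. The groups were well separated (−1.75, SE 0.08, −1.99 to −1.52, adjusted p = 0.015) and remained between −1.83 and −1.68 over all 12 alternatives, though its probe set is of a kind that can read related transcripts. The signalling receptor of Cxcl12, Cxcr4, read 14.1 and 15.5 in the arrays labelled shTRPV4, against 28.2 and 8.98 in the arrays labelled shGFP (−0.09, adjusted p = 0.87). Cxcr2, Cxcr3, Cxcr5 and Cxcr6 read under the offset on all 4 arrays, and Ackr3 was the only one of the 7 that read above the arrays' median level.

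Of 10 genes that cut, shed or hold these chemokines, 9 were measured, 2 fell and 0 rose (median −0.07), beside 5.36% of all probe sets lower. They were Mmp2 and Mmp9, gelatinases that can clip CXC chemokines. Mmp9 read 81.6 and 93.2 in the arrays labelled shTRPV4, against 218 and 241 in the arrays labelled shGFP (−1.18, SE 0.08, adjusted p = 0.017). Mmp2 read 794 and 924 in the arrays labelled shTRPV4, against 1580.3 and 1633 in the arrays labelled shGFP (−0.86, SE 0.08, adjusted p = 0.022; 0.052 with an offset of 1). On all 4 of their probe sets the arrays of the groups did not overlap, and all 4 passed. Adam10 and Adam17, the proteases that release Cxcl16 from the membrane, differed by 0.10 (−0.09 to 0.30) and 0.16 (−0.01 to 0.34). On their other probe sets the differences were −0.21 and −0.08 for Adam10 and 0.15 and 0.19 for Adam17, and none passed. The heparan sulphate genes, which supply the glycans that hold chemokines at cell surfaces, did not pass: Sdc1 0.08, Sdc4 −0.22 and Ext1 −0.23 (adjusted p from 0.15 to 0.49, with Ext1 at 0.043 under the filter at the 50th percentile).

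Of the 9 genes, Cxcl1, Cxcl2, Cxcl5, Cxcl9 and Cxcl10 lie in 2 stretches of chromosome 5, and the RefSeq order of genes was used to read their neighbours. Only protein-coding genes and genes of the lists used here were counted in that order. On chromosome 5 the stretch from Cxcl5 to Cxcl2 holds 7 genes, all CXC ligands, of which 6 were measured and 2, Cxcl5 and Cxcl1, were lower. They are not adjacent: Ppbp, Pf4, Cxcl3 and Cxcl15 lie between them, and Pf4 differed by 0.19 (0.01 to 0.36, adjusted p = 0.14). Of the 5 flanking genes on each side, 6 were measured and 1 was lower, the epidermal growth factor family gene Ereg (280 in shTRPV4 and 1114 in shGFP as means, −1.89, adjusted p = 0.017), while its relatives Epgn and Btc differed by 0.15 and 0.16. A second stretch on the same chromosome, from Cxcl9 to Cxcl11, holds 4 genes, of which Cxcl10 alone was lower, and 0 of 7 measured flanking genes passed. The counts of both stretches stand beside 5.36% lower and 4.54% higher over all probe sets. In both stretches a lower gene lies beside genes that did not pass. Around Cxcl5 to Cxcl2 every measured gene that did not pass was dim, with group means up to 67.9 (Ppbp in shGFP). The array medians were 129 to 144, so a change in those genes could be missed. In the second stretch Cxcl9 and Cxcl11 were dim too, and Art3 had means of 148 in shTRPV4 and 130 in shGFP. Bright genes on its flanks, such as Uso1 and Naaa, differed by −0.01 and 0.35.

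**Figure D3:**
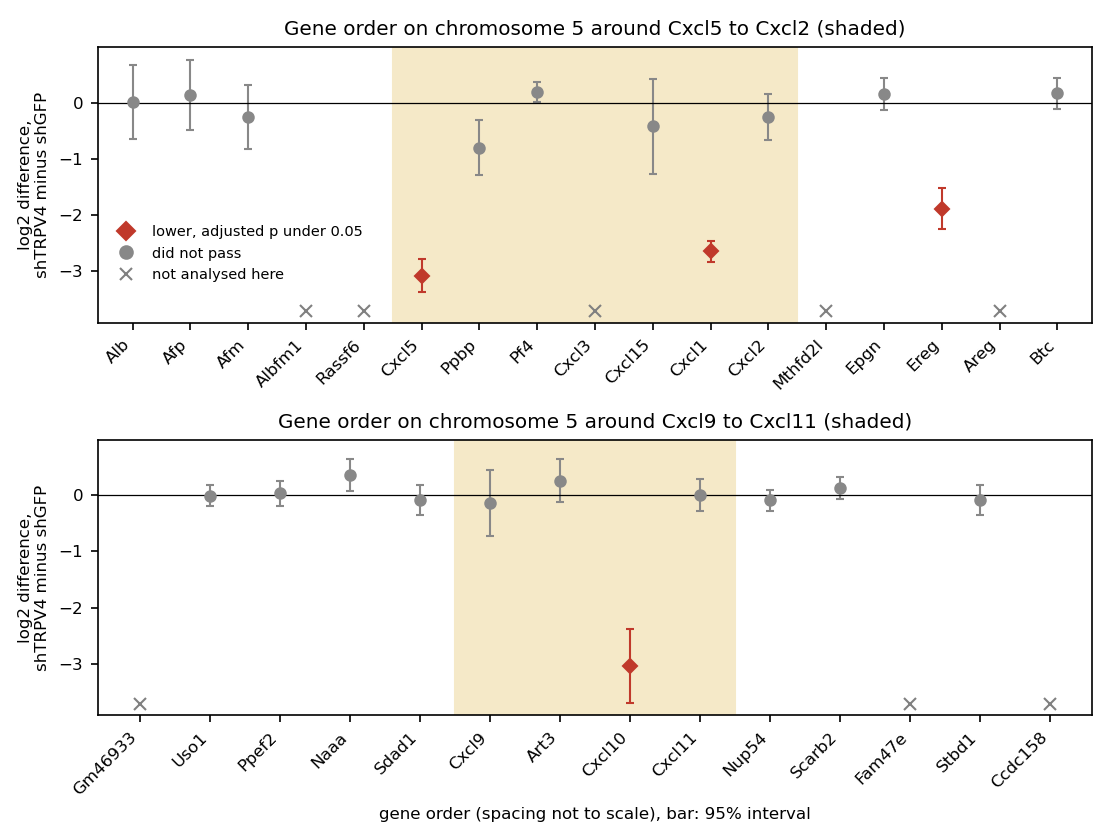
Log2 difference (shTRPV4 minus shGFP) with 95% interval for protein-coding and listed genes in their order on chromosome 5 around Cxcl5 to Cxcl2 (top) and Cxcl9 to Cxcl11 (bottom), shaded, with 5 flanking genes on each side and spacing not to scale. Red diamonds passed: Cxcl5, Cxcl1 and Ereg above, and Cxcl10 below; crosses at the foot stand for genes not analysed here.

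The regulators known to induce these chemokines, or to act on the stability of mRNAs, also held lower members. Of 14 NF-kappaB pathway genes, 12 were measured, 5 fell (where 5.36% of all probe sets were lower) and 0 rose (median −0.11). These were the feedback inhibitor genes Nfkbia (−0.87) and Nfkbie (−1.40), Nfkbiz (−1.13), a nuclear cofactor of NF-kappaB, the subunit gene Relb (−0.82) and Bcl3 (−0.76). Their adjusted p ranged from 0.015 to 0.038. With an offset of 1 the count was 2, as Nfkbia, Nfkbie and Bcl3 did not pass (adjusted p from 0.054 to 0.070). With probe sets under the 50th percentile left out, 9 were tested. Of these, 4 were lower and 2 higher, Nfkbib (0.25) and Ikbkb (0.26), with limma adjusted p of 0.028 and 0.027. Under that filter 2232 of all 11313 probe sets tested were lower and 2642 higher. Several of the 5 genes that fell are themselves NF-kappaB targets. The subunit gene Rela read 1187 and 1370.4 in the arrays labelled shTRPV4, against 1128 and 1267 in the arrays labelled shGFP, and the groups overlapped (0.12, adjusted p = 0.46).

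Of 11 interferon signalling genes, 10 were measured, 4 fell and 0 rose (median −0.28). They were Irf9, the DNA-binding part of the type I interferon complex (−0.92, adjusted p = 0.022), the type I receptor genes Ifnar1 (−0.43, adjusted p = 0.039) and Ifnar2 (−0.56, adjusted p = 0.028), and the kinase gene Jak2 (−0.40, adjusted p = 0.046). With an offset of 1 none of the 4 passed limma (adjusted p from 0.051 to 0.078), and Jak2 did not with median centring either (0.058). The kinase genes Jak1 and Tyk2 were higher with an offset of 64, median centring, either filter on dim probe sets or an intensity trend, by 0.31 to 0.51 (adjusted p from 0.0049 to 0.046). In those settings 1662 to 2642 of all probe sets tested were higher, against 1027 in the main setting. Of 7 genes that act on mRNA stability, in either direction, 6 were measured, 2 fell and 0 rose (median −0.34). They were the endonuclease gene Zc3h12a (−0.91, adjusted p = 0.019) and Hnrnpd (−0.54, adjusted p = 0.028, and 0.057 with an offset of 1). These counts stand beside the 5.36% of all probe sets that were lower.

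By root mean square difference of normalized log2 values, each centred on its own mean over the 4 arrays, the genes most like Cxcl1 were Il6 (0.065), Igfbp3 (0.066) and Inhba (0.095). Il6, for example, read 26.8 and 32.6 in the arrays labelled shTRPV4, against 275 and 274 in the arrays labelled shGFP. Those most like Cxcl10 were the antiviral genes Oasl2 (0.077), Oas1a (0.17) and Ifit1 (0.17). Oasl2 had a similar profile, at 6.61 and 19.2 in the arrays labelled shTRPV4, against 235 and 207 in the arrays labelled shGFP. For the brighter Cxcl12 probe set they were Eif1ax (0.0076), Adss (0.0094) and Tm9sf4 (0.010). The likeness is over 4 arrays that all genes share, and describes mainly the size of the difference between the labels. That size depends on the offset for genes with low readings, such as Il6, Oasl2 and Cxcl10 in the arrays labelled shTRPV4. The ranking with another offset was not tested.

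Markers of cells that make or answer chemokines differed too. Of 12 markers of preadipocytes and fibroblasts, 11 were measured, 6 fell (Pdgfra −1.25, Dlk1 −1.24, Cd34 −1.07, Thy1 −0.56, Dcn −1.68 and Lum −2.28) and 0 rose. The summed deposited intensity of the 11 was 58508 to 59524 in the arrays labelled shTRPV4, against 71360 to 73686 in the arrays labelled shGFP. These sums, like those below, are without normalization. The bright Col3a1 (−0.02), Vim (0.11) and S100a4 (−0.13) in these sums did not pass, nor did Pdgfrb (−0.14) and Col1a1 (−0.38). Col1a1 was lower with the larger offset, either filter on dim probe sets or an intensity trend (adjusted p from 0.0053 to 0.024). Of 10 adipocyte markers, 8 were measured, 2 rose (Retn 1.90 and Slc2a4 1.16) and 0 fell, with sums of 60611 to 63232 in shTRPV4, against 53566 to 54831 in shGFP. Retn alone had means of 5249 in shTRPV4 and 1405 in shGFP, and the bright Adipoq and Fabp4 in these sums did not pass. Of 10 macrophage markers, all measured, 3 fell (Lyz2 −1.89, Cd14 −0.96 and, on 1 of 3 probe sets, Csf1r −0.85) and Cd68 rose (1.49). Their sums were 629 to 683 in shTRPV4, against 978 to 1073 in shGFP, while the leukocyte marker Ptprc read 11.3 and 10.7 in shTRPV4, against 11.1 and 5.43 in shGFP. Of 7 neutrophil markers 6 were measured and 1 fell, S100a8 (−0.99), whose probe set can read related transcripts. The neutrophil sums were 1078 to 1104 in shTRPV4, against 2061 to 2193 in shGFP. They are mostly S100a8 itself (means of 998 in shTRPV4 and 2037 in shGFP), and its partner S100a9 read at most 9.40. None of 6 endothelial markers passed (sums 115 to 122 in shTRPV4, against 92.3 to 107 in shGFP), nor of 5 measured lymphocyte markers of 6 (72.2 to 79.7 in shTRPV4, against 56.3 to 56.9 in shGFP). These marker counts stand beside 5.36% lower and 4.54% higher over all probe sets. With an offset of 1 the preadipocyte count was 5 (without Thy1), the adipocyte count 1 (Retn) and the macrophage counts 0 lower and 0 higher (adjusted p from 0.054 to 0.088 for the lost calls). In bulk RNA, fewer cells of a type and less RNA per cell cannot be told apart, and the part of these markers in the chemokine differences was not tested.

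**Figure D4:**
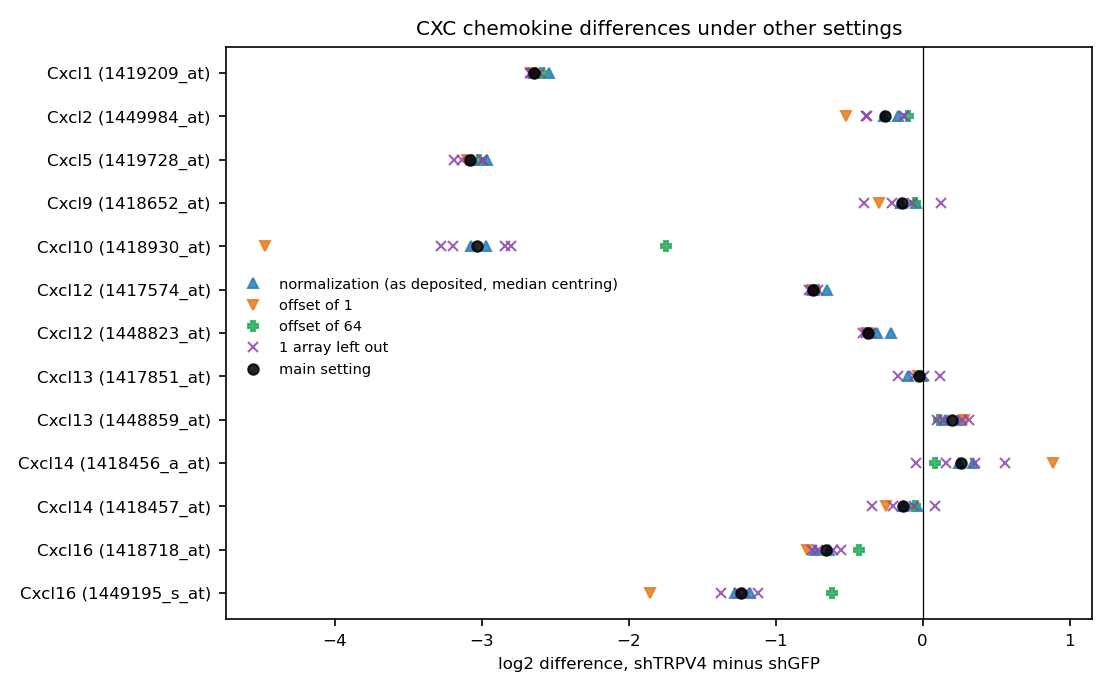
Log2 difference (shTRPV4 minus shGFP) of each chemokine probe set in the main setting (black) and with other normalizations, offsets of 1 and 64, or 1 array left out. Cxcl1 and Cxcl5 hardly move, Cxcl10 spreads from −4.47 to −1.75 with the offset, and the dim Cxcl14 probe set 1418456_a_at from −0.043 to 0.88.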

How the data were processed

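Total RNA of differentiated 3T3-F442A cells was hybridised to Affymetrix mouse arrays, 2 labelled shTRPV4 and 2 labelled shGFP by their titles. The deposited values are linear intensity values, 1 per probe set and array, made by the authors; how they summarised, corrected and scaled them is not given in the sources used here. Array medians on the log2(intensity + 16) scale spanned 0.14, so the values were quantile normalized. limma 3.58.1 in R 4.3.3 (lmFit, eBayes without trend; 2 residual and 1.80 prior degrees of freedom) was fitted to all 22626 probe sets, with Benjamini-Hochberg adjustment over all of them; every adjusted p given is from limma. The method was tested on simulated data with changes planted in 200 probe sets, all above the median level. That test does not cover dim probe sets or the choice of offset. Only 2 arrays per group limit the precision.

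Symbols came from the platform annotation (20380 probe sets with 1 gene, 691 with several, 1555 unnamed here), updated by gene ID through the RefSeq table of GRCm38.p6 (20351 matched). A gene outside the 9 members was represented by its probe set with the highest mean. Named were all members, every called gene of the lists, the bright genes of the ligand, receptor and processing lists, chromosome 5 neighbours, and the 3 genes most like Cxcl1, Cxcl10 and Cxcl12. Members and lists were chosen with earlier results of these data known. Alternatives were other normalizations, offsets of 1 and 64, filters on probe sets under the 25th and 50th percentiles, an intensity trend, the replicate number as a block, and leaving out each array.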

Additional observations from a re-analysis of the deposited data

How the results depend on the processing

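Against 6 chemokine probe sets lower and 0 higher, the alternatives gave 3 to 7 lower and 0 higher, apart from the block and the left-out arrays. With an offset of 1 the count was 3 (Cxcl1, Cxcl5 and the Cxcl12 probe set 1417574_at). The filter at the 50th percentile kept 4 of the 13 for testing and that at the 25th 9, so Cxcl2, Cxcl9 and Cxcl14 have no value in either and Cxcl10, Cxcl13 and Cxcl16 none in the stricter one. Over all probe sets, 1213 were lower and 1027 higher; the counts lower and higher were 1161 and 600 with the values as deposited, 1141 and 1662 with median centring, 426 and 180 with an offset of 1, 1986 and 2130 with 64, 1975 and 2084 with probe sets under the 25th percentile left out, 2232 and 2642 with those under the 50th left out, and 1980 and 2170 with an intensity trend. The median of all probe sets moved by under 0.1.

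With 1 array left out, the chemokine count lower was 0 to 0, as were those of all probe sets in each direction, with smallest adjusted p among the chemokines from 0.13 to 0.20 and 4543 to 5913 of all probe sets at an unadjusted p under 0.05. In these fits the lone array is assumed to vary like the other group. The sign turned for 4 dim probe sets that never passed: leaving out 1 array gave −0.17 to 0.12 for Cxcl13 (1417851_at), −0.043 to 0.56 and −0.34 to 0.083 for Cxcl14 (1418456_a_at and 1418457_at) and −0.40 to 0.13 for Cxcl9. With the replicate number as a block, 0 chemokine probe sets and 0 of all probe sets were lower or higher (8 of the 13 and 6858 of all at an unadjusted p under 0.05). The labels do not say that a number pairs arrays, and the deviations of same-numbered arrays from their group means correlated at 0.12 over probe sets. The signal over background is unknown, so the dim members carry least weight.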
